A study of Mus musculus with 7 samples.

Results

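The genes described here encode the IRE1, XBP1 and ATF6 sensors and regulators of endoplasmic reticulum (ER) stress and the chaperone and degradation genes that they control: Ern1, Xbp1, Atf6, Hspa5, Hsp90b1, Dnajb9, Herpud1, Pdia4, Hyou1 and Sdf2l1. They were taken by symbol, 10 of the 23329 symbols counted, and all 10 were expressed well enough to be tested among 12480 genes. RNA came from wild-type Beta-TC6 cells, a mouse line established from insulin-secreting tumours of mice that carry the SV40 large T antigen under an insulin promoter, so these are proliferating tumour cells rather than islet beta cells. Vehicle was given to 4 samples and IL1B (interleukin-1 beta, an inflammatory cytokine) to 3, and both groups shared medium with 15% serum and a forskolin pulse (10 µM for 1 h), which raises cAMP and sets the cells' clocks to a common phase. The labels state neither the dose of IL1B nor how long it was applied. Ins2, Ins1 and Iapp, which mark beta cells, averaged 21180, 3309 and 7874 counts per 1000000 (CPM) in vehicle. Ucn3, another beta-cell marker, had only 4 to 8 counts per library. Gcg and Sst, hormone genes of other islet cells, averaged 311.5 and 287.7 CPM in vehicle. Among 12 exocrine and duct markers, 3 (Cpa1, Prss1 and Amy2a5) had no count in any library. All 12 together summed to 22.7 to 28.1 CPM in vehicle.

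The ER folds and checks secreted proteins, and beta cells load it heavily with proinsulin. When unfolded protein builds up, the sensor IRE1 cuts an intron out of Xbp1 mRNA in the cytoplasm so that it encodes an active transcription factor, and ATF6 travels to the Golgi, where proteases release its own transcription factor domain. Both factors switch on chaperones, disulfide isomerases and the machinery of ER-associated degradation. A parallel arm, the kinase PERK, slows translation and favours ATF4. Counts per gene record how much mRNA of each gene was present, and neither Xbp1 splicing nor ATF6 cleavage can be read from them.

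The sequence that IRE1 removes shows why a gene count is silent about it. Below, the 26 bases that leave the Xbp1 mRNA are in capitals with their neighbours in lower case, from exon 4 of 5 of the longest coding transcript (GRCm38, plus strand, intron at chr11:5524279-5524304). It was found as 26 bases between a pair of CNGCNG cleavage sites. Of 2 such matches in the transcript, it is the one in the coding sequence whose removal lengthens the reading frame, from 267 to 371 codons.

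Xbp1: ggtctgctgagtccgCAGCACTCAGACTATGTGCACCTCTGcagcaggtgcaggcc

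A read from either form falls on the same gene symbol, so Xbp1 counts add the unspliced and the spliced mRNA.

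Promoters of 3 target genes are shown next, those with a match to 1 of the elements defined below. Hspa5 and Hsp90b1 carry an ERSE, and Herpud1 carries an ERSE-II and a C/EBP-ATF site. Whether these elements have a part in any change with IL1B was not tested. Each run is the 250 bases before the RefSeq transcription start (GRCm38.p6), written along the gene's strand. Capitals mark the fixed letters of ERSE (CCAAT, 9 bases of any kind, then CCACG), of ERSE-II (ATTGG, any base, then CCACG) and of the C/EBP-ATF composite site that ATF4 is known to bind (TGATGCAA), on either strand. The windows are chr2:34771840-34772089 (plus strand) for Hspa5, chr10:86705445-86705694 (minus strand) for Hsp90b1 and chr8:94386179-94386428 (plus strand) for Herpud1.

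Hspa5: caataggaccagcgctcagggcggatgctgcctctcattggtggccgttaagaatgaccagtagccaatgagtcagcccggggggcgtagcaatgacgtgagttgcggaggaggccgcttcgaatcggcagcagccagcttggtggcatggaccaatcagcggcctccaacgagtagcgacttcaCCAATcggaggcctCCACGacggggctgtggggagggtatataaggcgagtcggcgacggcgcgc

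Hsp90b1: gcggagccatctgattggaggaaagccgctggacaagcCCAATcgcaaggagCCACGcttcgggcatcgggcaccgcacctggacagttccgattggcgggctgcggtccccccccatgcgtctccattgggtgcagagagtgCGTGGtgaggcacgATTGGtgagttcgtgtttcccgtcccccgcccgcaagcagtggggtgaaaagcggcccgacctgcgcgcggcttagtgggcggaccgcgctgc

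Herpud1: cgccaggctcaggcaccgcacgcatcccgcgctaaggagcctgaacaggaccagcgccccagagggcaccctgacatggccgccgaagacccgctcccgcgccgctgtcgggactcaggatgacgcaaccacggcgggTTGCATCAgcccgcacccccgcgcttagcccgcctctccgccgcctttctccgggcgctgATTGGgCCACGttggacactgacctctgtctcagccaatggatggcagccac

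Hspa5 has an ERSE at bases -65 to -47 from its start and Hsp90b1 has 2, at -212 to -194 and, on the other strand, at -107 to -89. Herpud1 has an ERSE-II at -52 to -42 and a C/EBP-ATF site on the other strand at -112 to -105. Among 32851 RefSeq promoter windows of 300 bases (several starts per gene, 50 bases after the start included), 0.119% hold an ERSE, 0.0365% an ERSE-II and 0.895% a C/EBP-ATF site. RefSeq windows were found for 8 of the 10 genes, all but Atf6 and Hyou1, and the windows of Ern1, Xbp1, Dnajb9, Pdia4 and Sdf2l1 hold none of these 3 elements. None of the 8 holds the XBP1 core TGACGTGG (0.676% of windows) or the NF-kB consensus (4.51%). A CCACG half-site, counted also inside the longer elements, lies in 7 of the 8 and in 32.8% of all windows. These are matches of letters, not measured binding.

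**Figure D1:**
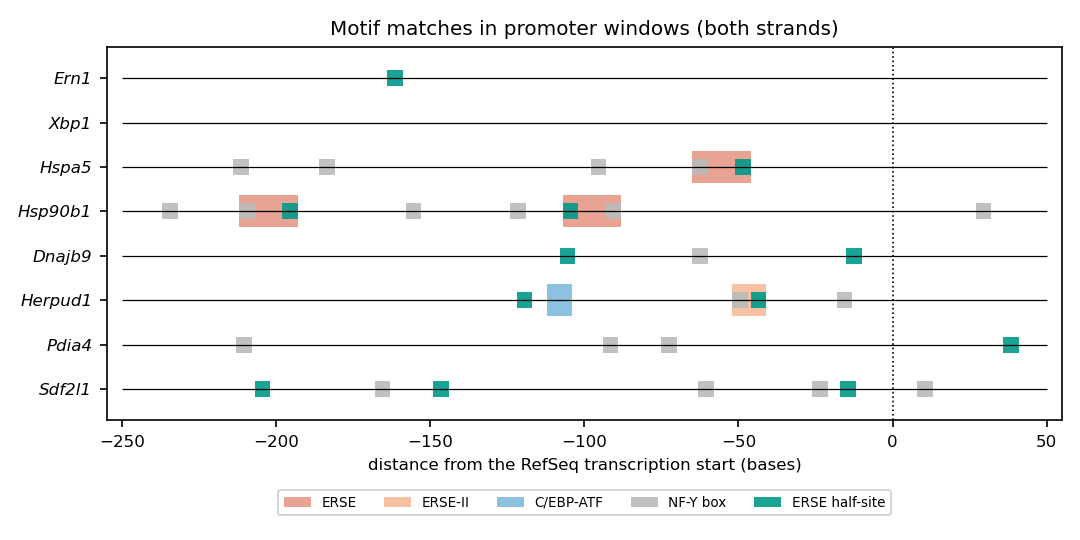
Motif matches by distance in bases from the RefSeq transcription start, for the 8 genes with a window. Tall pale boxes are ERSE, ERSE-II and C/EBP-ATF sites and short boxes are NF-Y boxes (CCAAT) and ERSE half-sites (CCACG). ERSE matches are in Hspa5 and Hsp90b1, and the ERSE-II and C/EBP-ATF matches are in Herpud1.

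IL1B raised 2 of the 10 genes, the sensor gene Ern1 and the degradation gene Herpud1, and lowered none. The 8 others had ratios of IL1B to vehicle between 0.927 and 1.10, and none of their 95% intervals went above 1.21 or below 0.854. The test was edgeR's quasi-likelihood test over all genes with Benjamini-Hochberg adjustment and a threshold of 0.05. Across all 12480 genes 11.0% passed, 7.76% higher (968 genes) and 3.25% lower (406 genes). With total-count scaling those numbers were 844 and 556. The median log2 fold change was 0.08 over the 10 genes and -0.0087 over all genes. The median over the 10 was 0.0436 without the second IL1B library, 0.0523 without the second library of both groups and 0.0472 with total-count scaling. DESeq2 and limma-voom also called 2 of the 10 higher and none lower. Over all genes DESeq2 called 813 higher and 260 lower (7.71%), and limma-voom 960 and 386 (10.8%). Those shares are also the background for the DESeq2 and limma-voom counts of the lists below. At an unadjusted p under 0.05, 4 of the 10 were higher and none lower. Of the 8934 tested genes with a RefSeq promoter window, 1180 were higher and 857 lower at that unadjusted level. These 8934 genes are only a part of the 12480, and Atf6 and Hyou1 are not among them. Over all 12480 genes, Hspa5 (edgeR unadjusted p = 0.0337) ranked 2420 by unadjusted p and Pdia4 (0.0685) ranked 3210. The number of all genes under 0.05 therefore lies between these 2 ranks, also for the unadjusted counts of the lists below. The groups did not overlap in 3 of the 10 genes, Ern1, Herpud1 and Hspa5, against 21.0% of all tested genes (12.1% higher, 8.83% lower). No label ties the replicates to separate cultures, and p-values therefore reflect a sample-to-sample spread that could be technical. In bulk RNA, a change in the number of cells that express a gene and a change in RNA per cell cannot be told apart.

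**Figure D2:**
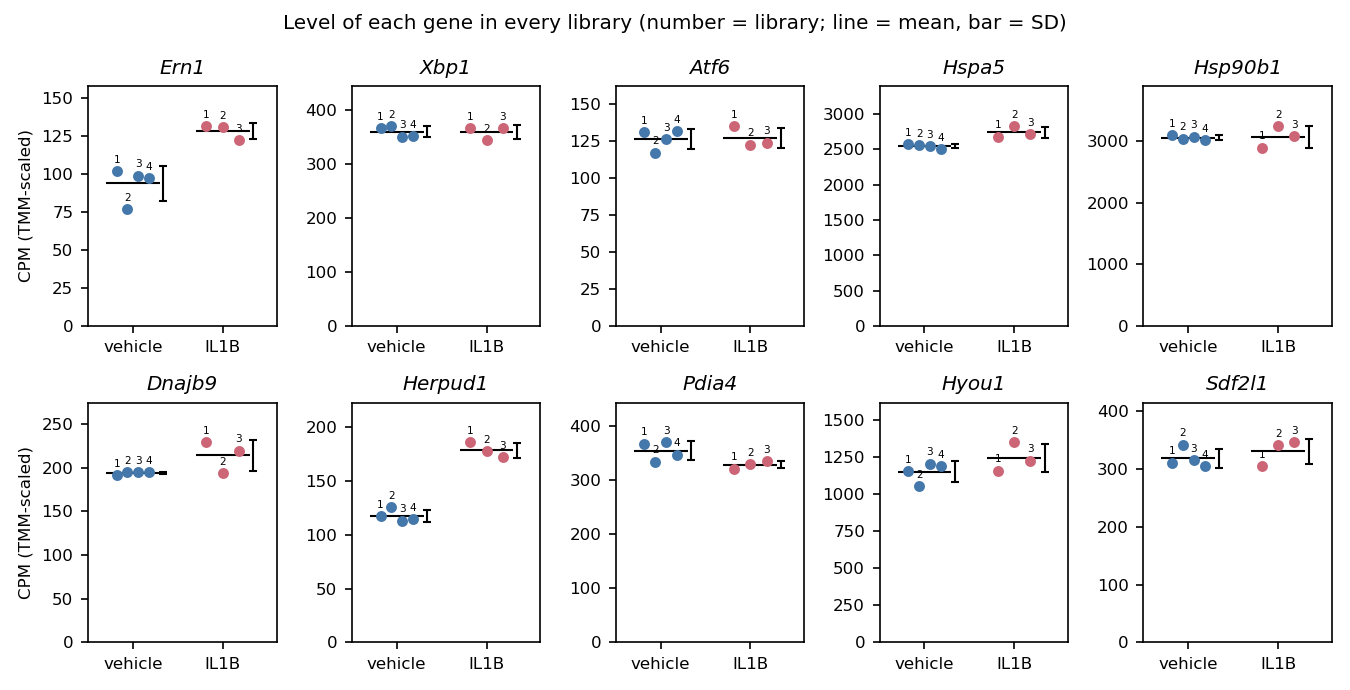
Level of each of the 10 genes in CPM (vertical axes from 0) in the 4 vehicle and 3 IL1B libraries, with the library number beside each point, a line at the group mean and a bar of 1 SD. Ern1 and Herpud1 separate clearly between groups, and Xbp1, Atf6 and Hsp90b1 overlap.

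The sensors and their transcription factors did not move together. Ern1 encodes IRE1 alpha, the kinase and RNase that splices Xbp1, and lies on chromosome 11 (106394650 to 106487852, minus strand). Its 4 vehicle libraries stood at 102, 77.04, 98.9 and 97.3 CPM and its 3 IL1B libraries at 132, 131 and 122 CPM. Every IL1B library was above every vehicle library, and the second vehicle library lay well below the other 3. Vehicle averaged 93.8 ± 11.35 CPM (SD, n = 4) and IL1B 128 ± 5.25 CPM (SD, n = 3). That is a rise of 1.37-fold with a 95% interval of 1.21 to 1.54, or 0.45 on the log2 scale (SE 0.08, edgeR adjusted p = 6.1e-04). Without the second vehicle library the log2 fold change was 0.37 (SE 0.06, edgeR adjusted p = 1.5e-04). That library was low for long transcripts in general: its deviation from the vehicle mean had a Spearman rho of -0.562 with transcript length over 11266 genes, which are not independent replicates, against 0.223 to 0.307 in the other vehicle libraries. The Ern1 transcript, at 6946 bases, is the second longest of the 10. With trends in GC content and transcript length removed from each library, Ern1 changed by 0.45 (SE 0.06).

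Xbp1, the transcription factor gene whose mRNA IRE1 splices, lies on chromosome 11 (5520659 to 5525893, plus strand). It was at 367, 371, 351 and 352 CPM with vehicle and at 367, 345 and 367 CPM with IL1B. The groups overlapped, although the second IL1B library lay below every vehicle library. Its ratio of IL1B to vehicle was 0.998 (95% interval 0.922 to 1.08, edgeR adjusted p = 0.986). Atf6, the other sensor, on chromosome 1 (170704674 to 170867771, minus strand), was at 131, 117, 126 and 131 CPM with vehicle and at 135, 122 and 124 CPM with IL1B. The first IL1B library lay above every vehicle library and the other two inside the vehicle range, with a ratio of 1.01 (95% interval 0.915 to 1.105, edgeR adjusted p = 0.965).

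Herpud1 changed most among the 10 genes. It encodes HERP, a membrane protein that helps assemble the HRD1 ubiquitin ligase complex of ER-associated degradation, and lies on chromosome 8 (94386438 to 94395377, plus strand). Vehicle libraries held 117, 126, 113 and 114 CPM, and IL1B libraries 186, 178 and 172 CPM. The lowest IL1B library was far above the highest vehicle library, which was the second. The means were 117.5 ± 5.68 and 178 ± 6.98 CPM. Herpud1 therefore rose 1.52-fold with a 95% interval of 1.39 to 1.66, or 0.60 on the log2 scale (SE 0.06, edgeR adjusted p = 5.7e-07). By unadjusted p it ranked 189 of the 12480 genes and Ern1 528. Both genes passed under all 16 alternative settings, with log2 fold changes of 0.57 to 0.64 for Herpud1 and 0.35 to 0.50 for Ern1.

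The abundant chaperones differed little between groups. Hspa5 encodes BiP, the ER's HSP70 and the target most often used to report ER stress, and lies on chromosome 2 (34771970 to 34777547, plus strand). It was at 2568, 2556, 2546 and 2501 CPM with vehicle and at 2676, 2828 and 2708 CPM with IL1B. All 3 IL1B libraries were above all 4 vehicle libraries by a small margin. The ratio was 1.08 (95% interval 1.01 to 1.15, unadjusted p = 0.0337, edgeR adjusted p = 0.174), so Hspa5 did not pass over all genes. With the GC and length trends removed it passed (log2 fold change 0.13, edgeR adjusted p = 0.0387).

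Hsp90b1 encodes GRP94, the HSP90 of the ER, on chromosome 10 (86690209 to 86705509, minus strand). Its vehicle libraries lay between 3017 and 3107 CPM, and its IL1B libraries at 2897, 3251 and 3083 CPM, below, above and within the vehicle range. The ratio was 1.005 (95% interval 0.935 to 1.08, edgeR adjusted p = 0.960). A pseudogene on the opposite strand, 1810014B01Rik, matches 15.0% of the Hsp90b1 transcript at 95% identity or more, and with no strand setting stated, a share of reads could be assigned to either gene. The pseudogene itself, 1810014B01Rik, stood at 5.83 to 7.4 CPM.

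Hyou1 encodes GRP170, which recharges BiP with nucleotide, on chromosome 9 (44379490 to 44392369, plus strand). It was at 1157, 1053, 1207 and 1192 CPM with vehicle and at 1160, 1350 and 1228 CPM with IL1B. The first IL1B library fell inside the vehicle range and the other two above it, and the ratio was 1.08 (95% interval 0.990 to 1.18, edgeR adjusted p = 0.291).

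Dnajb9 encodes ERdj4, a BiP co-chaperone of the J-domain family and a known XBP1 target, on chromosome 12 (44205559 to 44210326, minus strand). Its vehicle libraries were almost equal, from 191.7 to 194.8 CPM, while its IL1B libraries stood at 229, 194 and 220 CPM. The second IL1B library sat inside the vehicle range and the other two above it. Over all libraries the ratio was 1.10 (95% interval 1.01 to 1.21, unadjusted p = 0.0332, edgeR adjusted p = 0.172). Dnajb9 passed as higher without the second IL1B library (log2 fold change 0.21, edgeR adjusted p = 0.0283), without the second library of both groups (0.21, adjusted p = 0.0012) and with the GC and length trends removed (0.19, adjusted p = 0.0123).

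Pdia4 encodes ERp72, a protein disulfide isomerase, on chromosome 6 (47796141 to 47813430, minus strand). It was the only one of the 10 with a point estimate clearly below vehicle: 367, 334, 369 and 347 CPM with vehicle and 321, 330 and 335 CPM with IL1B. The groups touched, since the second vehicle library lay inside the IL1B range. The ratio was 0.927 (95% interval 0.854 to 1.01, edgeR adjusted p = 0.266), and without the second library of both groups Pdia4 passed as lower (log2 fold change -0.14, adjusted p = 0.0267). Sdf2l1, which encodes a small ER protein that works with BiP and its J-domain partners, lies on chromosome 16 (17130138 to 17132383, minus strand). Vehicle libraries were at 310.5, 341, 315 and 305 CPM and IL1B libraries at 304.5, 340.1 and 345 CPM, a ratio of 1.04 (95% interval 0.949 to 1.13, edgeR adjusted p = 0.681).

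**Figure D3:**
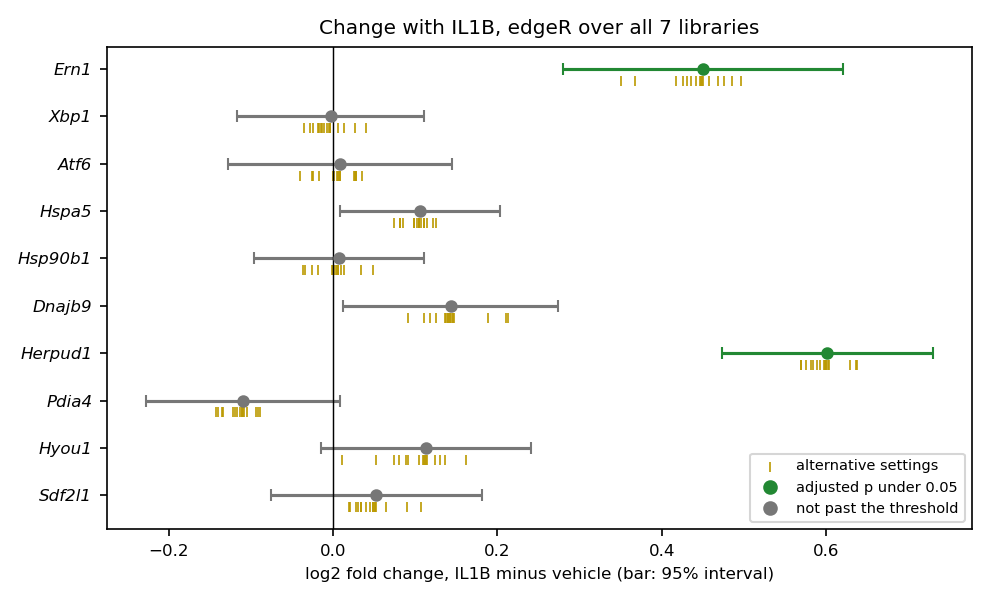
Log2 fold change of IL1B minus vehicle for each gene with its 95% interval (horizontal axis), green where the edgeR adjusted p is under 0.05, and the 16 alternative settings as ticks beneath. Herpud1 at 0.60 and Ern1 at 0.45 stand away from 0 under every setting, and the ticks of Xbp1, Atf6 and Hsp90b1 fall on both sides of 0.

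Levels per length put the chaperones far above the sensors. Divided by the length of the longest annotated transcript, Hsp90b1 stood at 1084 ± 13.8 CPM per kb in vehicle (SD, n = 4), rank 22 of the 11266 genes with a length, and Hspa5 at 693 ± 7.94, rank 60. Sdf2l1 at 287 ± 14.6 and Hyou1 at 257 ± 15.5 followed, then Xbp1 at 169 ± 4.89 and Pdia4 at 148 ± 7.11. Dnajb9 at 78.8 ± 0.592 and Herpud1 at 60.2 ± 2.91 CPM per kb came next. Atf6 at 17.4 ± 0.913 and Ern1 at 13.5 ± 1.64 CPM per kb were lowest. The level of Hsp90b1 was 80.2 times that of Ern1 on this scale. Neighbours in this order were separated by more than either SD in vehicle, with Sdf2l1 over Hyou1 and Atf6 over Ern1 by the smallest margins. With IL1B, Herpud1 reached 91.3 ± 3.58 CPM per kb and Dnajb9 86.9 ± 7.39, a difference smaller than the SD of Dnajb9. The 10 genes together took 0.819% to 0.851% of all counts in vehicle libraries and 0.828% to 0.892% in IL1B libraries.

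Within groups, the libraries did not move these genes as a block. The second IL1B library was the highest of its group for Hspa5, Hsp90b1 and Hyou1, by 0.05, 0.08 and 0.12 log2 CPM over the group mean, and the lowest for Dnajb9 and Xbp1, by 0.14 and 0.06 under it. The first IL1B library lay on the opposite side of the mean for each of these genes, with Hsp90b1 at -0.09, Hyou1 at -0.10 and Dnajb9 at 0.10. In vehicle the second library was low for Ern1 (-0.28), Hyou1 (-0.13) and Atf6 (-0.11), whose transcripts are the 3 longest, and high for Sdf2l1 (0.10) and Herpud1 (0.10), whose transcripts are the 2 shortest. The second library of each group also differed most from its group over all genes, with a chi-square per degree of freedom of 2.79 to 4.68 against the others, compared with 1.51 to 1.71 among the others. Without both second libraries, 4 of the 10 genes passed: Ern1, Herpud1 and Dnajb9 higher and Pdia4 lower. Calls over all genes also rose under that setting, to 1847 genes or 14.8%, from 1374 or 11.0%.

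**Figure D4:**
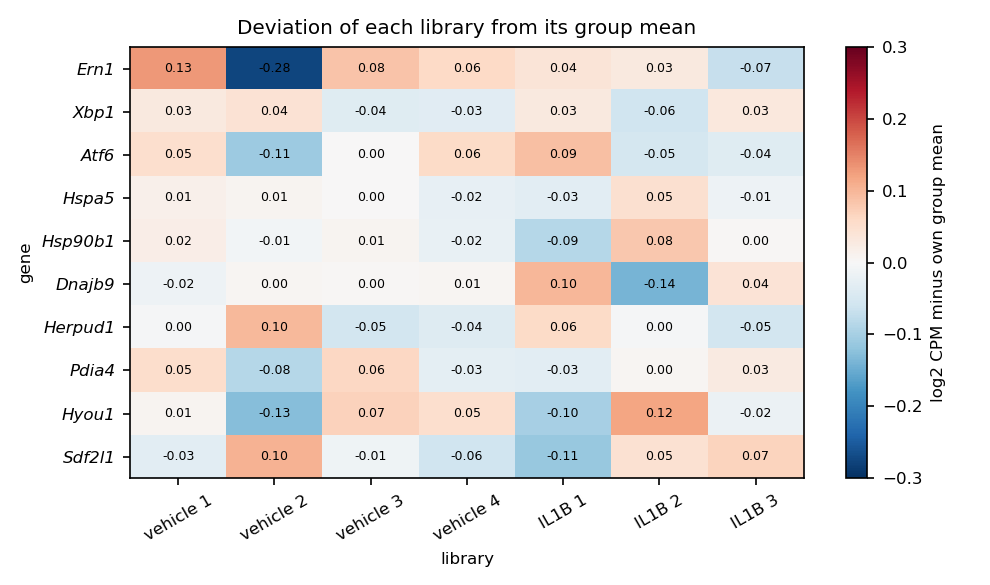
Deviation of each library from its own group mean in log2 CPM, for the 10 genes (rows) and 7 libraries (columns); red is above and blue below the mean. The second vehicle library is lowest for Ern1 (-0.28), and the second IL1B library is high for Hyou1 (0.12) and low for Dnajb9 (-0.14).

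Few other genes of ER folding, degradation and entry passed. Of 33 tested folding partners, which include calreticulin, calnexin and the other disulfide isomerases, 1 rose and none fell (3.03%, against 11.0% of all genes), with a median log2 fold change of 0.03. The one that rose was Ero1lb, the beta-cell ER oxidase that recharges disulfide isomerases, from 1216 ± 46.9 to 1395 ± 46.2 CPM (edgeR adjusted p = 0.0141). The 3 most abundant, Calr (ratio 1.075), P4hb (1.06) and Pdia6 (1.00), did not pass (edgeR adjusted p 0.200 to 0.994). At an unadjusted p under 0.05, 3 were higher and 1 lower, and DESeq2 and limma-voom each called 1 higher and none lower.

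In ER-associated degradation, where Herpud1 acts, 2 of 30 other genes rose and none fell (6.67%), with a median of 0.05. Ngly1, which encodes the enzyme that strips sugars from extracted glycoproteins, rose from 42.05 ± 2.46 to 53.9 ± 1.28 CPM (edgeR adjusted p = 0.0038), and the ubiquitin-conjugating enzyme gene Ube2g2 rose 1.16-fold (adjusted p = 0.0424). Ngly1 passed under all 16 alternative settings and Ube2g2 under 7. With upper-quartile or total-count scaling 1 gene of this list rose and 1 fell, Derl2, a degradation channel gene named after its values were seen (log2 fold change -0.19 and -0.20). Vcp, the ATPase that pulls substrates out of the ER, had a ratio of 1.06 (adjusted p = 0.342). DESeq2 called 1 higher and none lower in this list, limma-voom 2 and none, and an unadjusted p under 0.05 gave 5 and 1. Among 42 genes of ER entry and glycosylation none rose and 1 fell (2.38%), Alg2, a mannosyltransferase gene (266 ± 7.02 to 226 ± 10.4 CPM, adjusted p = 0.0077), with a median of -0.01. DESeq2 and limma-voom also called none higher and 1 lower there, and an unadjusted p under 0.05 gave 2 and 3.

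Around the sensors, 29 genes of IRE1 and ATF6 signalling gave 1 increase and 1 decrease (6.90%), with a median of -0.0093. Wfs1, which encodes wolframin, an ER membrane protein needed by beta cells, was at 70.0 ± 5.75 CPM with vehicle and fell by 0.35 on the log2 scale, to 54.8 ± 4.22 CPM (SE 0.08, edgeR adjusted p = 0.0071). It passed under 15 of 16 settings, and without the third IL1B library it did not, when 2 genes of the list were higher and none lower. Yy1, a transcription factor that works with ATF6 at ERSE, rose 1.16-fold (adjusted p = 0.0475), a call kept under 5 of the 16. Mbtps1, the Golgi protease that cleaves ATF6, was at 209 ± 0.77 and 216 ± 10.4 CPM (adjusted p = 0.666). Tmbim6, an inhibitor of IRE1, had a ratio of 1.12 (adjusted p = 0.116). DESeq2 and limma-voom each called none higher and 1 lower in this list, an unadjusted p under 0.05 gave 6 and 2, and without the second vehicle library 4 genes passed.

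The PERK-ATF4 branch of the same stress response stood at other values. Of its 27 tested genes 15 rose and none fell, 55.6% against 11.0% of all genes, with a median log2 fold change of 0.33 (an unadjusted p under 0.05 gave 18 higher and 1 lower, and DESeq2 and limma-voom 15 and none). Eif2ak3, the PERK kinase gene, went from 85.6 ± 5.82 to 215 ± 14.8 CPM, and Atf3, a stress-induced transcription factor, from 8.31 ± 0.522 to 31.1 ± 0.907 CPM. Ddit4, a stress-induced inhibitor of mTORC1, rose 2.44-fold, Cebpg, a partner of ATF4, 1.64-fold and Atf4 itself 1.48-fold. Asns and Psat1, amino acid synthesis genes that ATF4 controls, did not pass (ratios 1.01 and 0.978). Heat shock proteins of the cytosol and mitochondria, with their partners, gave 3 increases and no decrease among 26 genes. That is 11.5%, near the 11.0% of all genes, with a median of 0.03 (DESeq2 and limma-voom 3 and none, an unadjusted p under 0.05 6 and none). The 3 increases were Dnajb2 (1.435-fold), Stip1 (1.13-fold) and the mitochondrial Hspa9 (1.12-fold). Dnajb2 passed under all 16 alternative settings, Stip1 under 7 and Hspa9 under 5, and upper-quartile or total-count scaling left 1 increase. Hsp90ab1 (1.08-fold, adjusted p = 0.164) and Hspa8 (log2 fold change -0.07, adjusted p = 0.506) did not pass. These lists are set side by side with the 10 genes, and differences between lists were not tested.

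**Figure D5:**
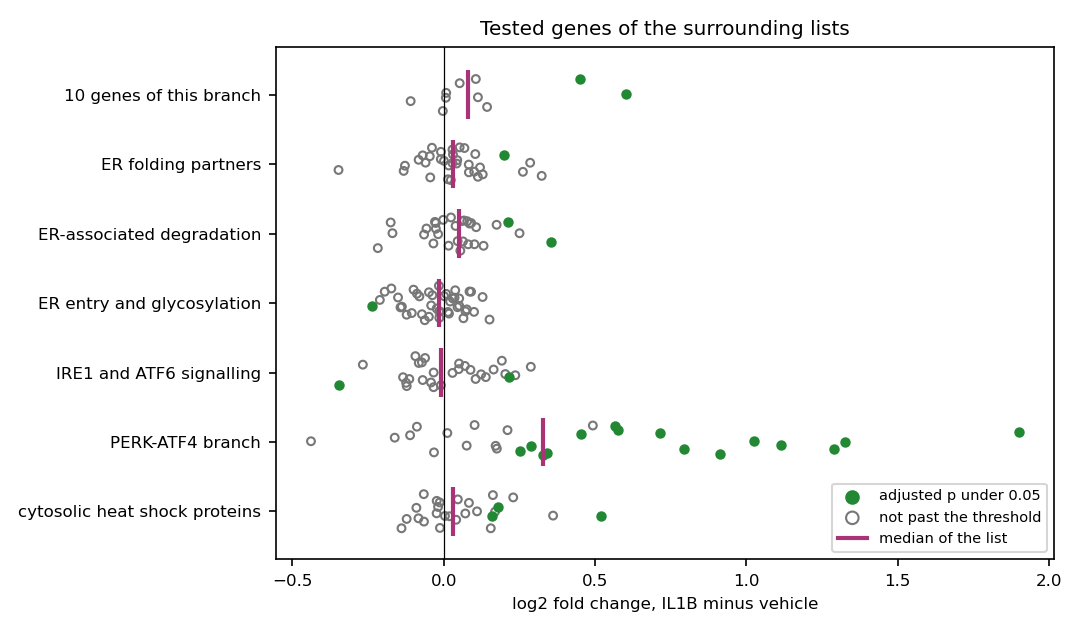
Log2 fold change of IL1B minus vehicle for every tested gene of the 10 genes and 6 surrounding lists, filled green where the edgeR adjusted p is under 0.05, with a bar at each median. The medians of the ER lists lie between -0.01 and 0.08, and that of the PERK-ATF4 branch is 0.33. The row labelled cytosolic heat shock proteins also holds mitochondrial ones such as Hspa9.

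Sorted by promoter sequence instead of by name, genes with an ERSE did not pass either. Windows with an ERSE belonged to 17 tested genes, among them Hspa5, Hsp90b1, Calr, Canx, Pdia6, Creld2, Dnajc3, Syvn1 and Derl3, which are chaperone, folding and degradation genes. The rest were Alg12, of the entry and glycosylation list, and Acacb, Adcy3, Hnrnpa3, Pan2, Xlr3a, Xlr3b and Xlr3c, which are in none of the lists. None of the 17 passed by edgeR, DESeq2 or limma-voom, and an unadjusted p under 0.05 gave 2 higher and none lower, with a median log2 fold change of -0.01. Dnajc3, another BiP co-chaperone gene, stood at 450.5 ± 10.9 CPM in vehicle against 429.5 ± 4.58 in IL1B libraries (adjusted p = 0.481), and Creld2, an ER stress-inducible gene, at 243 ± 15.6 and 255 ± 18.2 CPM (adjusted p = 0.598). Windows with an ERSE-II belonged to 6 tested genes, of which Herpud1 rose, and the BiP co-chaperone gene Dnajb11 was at 390.1 ± 8.44 and 388 ± 11.3 CPM (adjusted p = 0.952). Of the 8934 tested genes with any window, 11.2% passed.

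To find the genes most like the 7 targets over the 7 libraries, likeness was the Pearson correlation of log2 CPM with the mean standardised profile of Hspa5, Hsp90b1, Dnajb9, Herpud1, Pdia4, Hyou1 and Sdf2l1, over 8108 other genes of at least 20 CPM. The 8 highest were Gmip (r = 0.986), 2500003M10Rik (0.983), Ube2j2 (0.975), Nsl1 (0.973), Gnb1 (0.973), Ttc27 (0.966), Armcx4 (0.957) and Sugp1 (0.955). Of these, Gmip (log2 fold change 0.414, edgeR adjusted p = 0.0141) and Armcx4 (0.468, adjusted p = 0.00145) passed and the others did not. Ube2j2 encodes a ubiquitin-conjugating enzyme of ER-associated degradation, and its log2 fold change was 0.25 (SE 0.09, edgeR adjusted p = 0.0745). The 7 targets did not share 1 profile: r was 0.891 for Hspa5 with Herpud1 and -0.819 for Herpud1 with Pdia4. Likeness to their mean is thus not likeness to each of them. With 7 libraries in 2 groups, such values describe these libraries only.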

How the data were processed

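Polyadenylated RNA of 7 wild-type Beta-TC6 samples was sequenced. The authors deposited raw counts per gene symbol, whole numbers with no normalization. Per the submitters' processing notes the build was mm10, and STAR, RSEM, HOMER, Bowtie2 and DESeq2 are among the tools named, without roles. Not given in the sources used here are the aligner, counter, annotation and strandedness of these reads. Library totals ran from 5335607 to 7513934, and 3 counts equal 0.399 to 0.562 CPM. More deeply counted genes have less counting error.

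Vehicle columns matched the titles. The table numbers its IL1B columns 1, 2 and 3 and the titles 1, 3 and 4, so those columns were assigned to the group only and carry the table's numbers.

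Counts were fitted with edgeR 4.0.16 in R 4.3.3: TMM scaling, filterByExpr, quasi-likelihood test of IL1B against vehicle, no covariate. SE was derived from the F statistic (the change divided by its root), and 95% intervals use the moderated degrees of freedom. The fit was tested on simulated data. Alternatives were other scalings and filters, DESeq2 1.42.0, limma-voom (limma 3.58.1), leaving out libraries, and removing, per library, smooth trends in GC content and transcript length (mgcv 1.9.3; 90.3% of tested genes had a length).

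The 10 genes and all lists were chosen with earlier results of these data known. Named from each list were up to 4 genes past the threshold with the smallest adjusted p and the 3 most abundant; for the whole-table likeness, the 8 genes with the highest correlation. All 17 tested genes with an ERSE are named, and those with an ERSE or ERSE-II whose values are given were picked for illustration after their values were seen. Coordinates are GRCm38 (the assembly of mm10), from GENCODE, and 89.7% of symbols had 1 gene model. Promoters are RefSeq, GRCm38.p6. Near-identical copies were sought with blastn 2.17.0. Among markers of other cells, leukocyte genes summed to 4.39 to 6.25 CPM in vehicle and 6.46 to 7.03 with IL1B, stromal and endothelial genes to 8.75 to 12.7 and 9.18 to 11.5, exocrine and duct genes to 22.7 to 28.1 and 24.2 to 27.2, and other islet hormones and factors to 589 to 639 and 529 to 584, where Irx2 fell (edgeR adjusted p = 0.0023). Of 9 tested beta-cell markers none rose and 2 fell, Pdx1 and Mafa. Their part in the results was not tested.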

Additional observations from a re-analysis of the deposited data

Results flagged for a closer look

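In the 4 vehicle libraries Dnajb9 stood at 191.7 CPM in the first library and at 194.5 to 194.8 CPM in the other 3, a gap that is 0.895 of the whole range and above the 95% critical value of Dixon's test for 4 samples. The library is set apart because the other 3 nearly coincide, and the distance is under 2% of the level. This was 1 of 10 groups of values examined, where chance gives about 1 in 20 (0.5). Groups of 3 IL1B libraries were not examined.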

How the results depend on the processing

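Ern1 and Herpud1 passed under all 16 alternatives, and Xbp1, Atf6, Hsp90b1, Hyou1 and Sdf2l1 under none. The count of the 10 genes past the threshold was 2, and 4 without both second libraries and with GC and length trends removed. Under those 2 settings 14.8% and 13.9% of all genes passed, against 11.0% in the main fit. Leaving out 1 library at a time, the count of the 10 genes ran from 2 to 3. Estimates near 0 changed sign: Atf6 -0.0167 (upper-quartile scaling) and -0.0245 (total-count scaling), Hsp90b1 -0.0179, -0.0254 and, with no low-count filter, -0.00117, and without both second libraries Hsp90b1 -0.037 and Xbp1 0.0397. Leaving out 1 library gave -0.0181 to 0.0263 for Xbp1, -0.0396 to 0.0353 for Atf6 and -0.0342 to 0.0482 for Hsp90b1.

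Counts of the lists rest on few genes. Over single left-out libraries, folding partners ran from 1 to 3, degradation from 1 to 3, entry and glycosylation from 1 to 2, signalling from 1 to 4, the PERK-ATF4 branch from 12 to 17, heat shock proteins from 1 to 3 and all genes from 1021 to 1717. Without the second vehicle library they were 3 folding, 2 entry and 4 signalling genes. Without both second libraries the counts were 3 folding, 2 entry and 4 signalling genes. With no low-count filter they were 2 folding, 1 degradation, 1 signalling and 1 heat shock gene. Upper-quartile scaling, total-count scaling and a minimum of 1 CPM in 3 libraries each gave 1 signalling and 1 heat shock gene, and the 2 scalings gave 1 degradation gene higher and 1 lower. DESeq2 gave 1 degradation and 1 signalling gene, limma-voom 1 signalling gene, and removal of GC and length trends 5 heat shock genes. The cause was not tested. No paired analysis was possible because the numbers of the IL1B columns are not those of the sample titles, and the titles name no shared batch.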

Other observations

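Tested genes were also sorted by other promoter elements. Of the 8934 with any RefSeq window, 11.2% passed and 7.95% rose. The share passing was 11.2% with a CCACG half-site and 11.6% with a CCAAT box. Of 580 with a match to the NF-kB consensus, 109 rose and 13 fell (21.0%). Of 341 with a full cAMP response element (TGACGTCA), 41 rose and 6 fell (13.8%). Of 65 with a C/EBP-ATF site (TGATGCAA), 11 rose, Herpud1 among them, and 1 fell (18.5%). The XBP1 core (TGACGTGG) was in the windows of 93 tested genes, of which 5 rose and 3 fell, 8.60%. These counts are descriptions, and the differences between them were not tested.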
